A study of Populus tremula x Populus alba with 10 samples.

Results

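A set of 99 genes was nearly lost from bulk stem RNA of hybrid poplar under severe drought. The members were chosen on the bulk counts themselves, by 3 conditions on read counts scaled to a common library total (CPM): a mean of at least 5 CPM in the control libraries, a drought mean of no more than that control mean divided by 8, and every drought library below the lowest control library divided by 4. They were 99 of the 18939 genes with a control mean of at least 5 CPM, and of 31823 genes in all. Their bulk levels are therefore a description and carry no test, and the nuclei libraries, which had no part in the choice, carry the tests.

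All plants were wild type Populus tremula x alba of 1 clone, INRA 717 1B4, so that replicate plants share a genome and no other genotype was compared. They were grown in peat for 6 weeks, after which the controls were kept near field capacity, where soil moisture was 0.46 m3/m3. The drought plants were dried to 15% of field capacity and held there with small daily additions of water, for 14 days. Bulk RNA came from the stem in 3 control and 3 drought libraries, described as biological replicates. Nuclear RNA came from 2 control and 2 drought libraries, each of the nuclei sorted from 1 plant, from internode 15 per the labels' extraction protocol and from internodes 14 and 15 per the series' design text. In these libraries each molecule is counted by its unique molecular identifier (UMI).

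Plants short of water slow the growth of the stem before photosynthesis stops, and dividing and expanding tissues, such as the cambium and the young wood beside it, are known to be among the first to respond. The level of a transcript depends on how fast it is made and how fast it decays. RNA from sorted nuclei is mostly young transcript that has not yet been exported, whereas total RNA is mostly mature transcript of the cytoplasm. No name or product is paired with the IDs in the files, so roles of single members, and markers of stem tissue or cell types, could not be given.

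The bulk libraries held between 47900128 and 57594846 reads in genes. Bulk drought library 2 stood apart from the other drought libraries: the chi-square of counts per degree of freedom was 130.8 and 157.9 against them, compared with 10.1 between drought libraries 1 and 3 and 14.4 to 28.8 among controls. The nuclei libraries held 4346198 and 3633900 UMIs in genes in controls and 1930997 and 1994615 under drought. Median UMIs per barcode were lower in both drought libraries (347 and 262) than in both controls (732 and 513). Between 18 and 56 barcodes were shared by a pair of nuclei libraries, at most 1.33% of the smaller library.

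Together the members made up 5605, 5413 and 5528 CPM of the bulk control libraries, and 300.7, 794.8 and 309.6 CPM of the drought libraries 1, 2 and 3. The controls lay within a narrow range, and drought library 2 kept 14.4% of the control mean against 5.45% and 5.61% in the other drought libraries. Since 0.523% of the genes with at least 5 CPM in controls met the conditions, and the conditions are the contrast itself, nothing further is read from the number. In bulk RNA, fewer cells of a kind and less RNA per cell cannot be told apart.

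In the control plants the members were ordinary in abundance. Their median control level was 25.1 CPM, against 24.7 CPM over all 18939 genes of that floor. In controls 13 members were at 100 CPM or more, 46 between 20 and 100 CPM, and 40 between 5 and 20 CPM. The coefficient of variation among the 3 controls had a median of 9.64% (7.22% over all genes of that floor). Under drought the mean level ran from 0.597% to 12.3% of control, with a median of 8.43%.

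**Figure D1:**
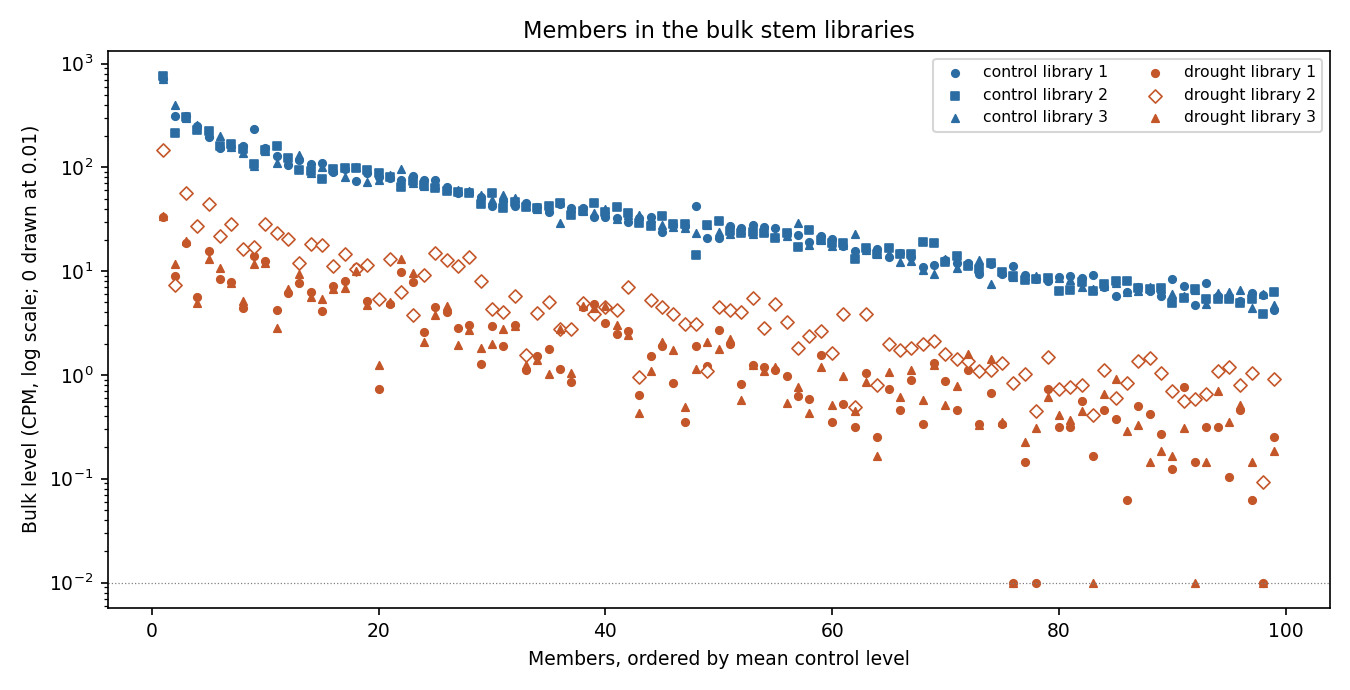
Bulk level of each member in CPM on a log scale, with members ordered by their mean control level and each point a library. Control and drought points form separate bands because the members were chosen for it, and bulk drought library 2 is the highest drought point for 87 of the 99.

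The most abundant member was PtXaAlbH.03G141000, with 34024, 37335 and 40517 reads in bulk controls and 1599, 7825 and 1663 in drought libraries 1, 2 and 3. It went from 723.0 ± 30.6 to 71.4 ± 65.2 CPM (SD, n = 3 per group), and the drought SD came almost wholly from library 2. The next, PtXaAlbH.07G082400, had 14912, 10521 and 23141 reads in controls and 433, 392 and 573 under drought, or 308.5 ± 94.1 and 9.39 ± 2.24 CPM (SD, n = 3 per group). Its controls varied most among these abundant members, yet its drought libraries were close to one another, and library 2 was the lowest of them.

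PtXaAlbH.02G212700 had 314.1, 303.1 and 298.0 CPM in bulk controls and 18.6, 57.2 and 19.3 CPM under drought. PtXaAlbH.09G141900 had 252.3, 228.5 and 253.8 CPM in controls and 5.62, 27.3 and 4.93 CPM under drought. Both were tight in controls and highest in drought library 2. PtXaAlbH.01G104300 went from 194.9, 221.7 and 210.2 CPM to 15.5, 44.7 and 12.95 CPM. PtXaAlbH.12G097300 went from 154.3, 161.4 and 201.5 CPM to 8.43, 22.1 and 10.8 CPM. In both genes drought library 2 was the highest of the 3 and the groups were far apart.

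The lowest remaining share was that of PtXaAlbH.18G051600, which had 283, 189 and 345 reads in controls and 0, 5 and 0 under drought. It is a weakly expressed member, at 5.24 ± 1.21 CPM in controls (SD, n = 3), so that 5 reads in 1 library are all that was left. PtXaAlbH.19G022600 kept 2.13% of its control level, with 1559, 1424 and 1982 reads in controls and 31, 51 and 21 under drought. PtXaAlbH.10G062800 kept 2.44%, with 746, 645 and 1312 reads in controls and 15, 26 and 22 under drought. For both genes all 3 drought libraries were similarly low. PtXaAlbH.06G051600 kept 2.60%, with 439, 316 and 390 reads in controls and 8, 22 and 0 under drought. Reads were absent for 3 members in drought library 1 and for 4 in drought library 3, whereas each member had at least 1 read in drought library 2.

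At the edge of the rule, PtXaAlbH.09G092200 (12.1% of control) and PtXaAlbH.01G023800 (12.3%) were just inside, and PtXaAlbH.06G198200 and PtXaAlbH.18G085400 (both 12.6%) just outside. For the condition on single libraries, the highest drought library of PtXaAlbH.18G059600 was 0.244 of its lowest control and it was inside, while PtXaAlbH.10G027900, at 0.251, was outside. At the floor of 5 CPM, PtXaAlbH.19G015400 (5.09 CPM) was inside and PtXaAlbH.10G110400 (4.68 CPM) outside. In all, 18 genes had a drought mean within the first limit without meeting the condition on single libraries. Among them, PtXaAlbH.10G011100 was listed at 0 in each drought library and had its control reads in control library 1, and it was singled out after its values were seen.

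Most members had a higher remainder in bulk drought library 2, a description that the conditions themselves limit from above. Drought library 2 was the highest of the 3 for 87 of the 99 members (52.9% of all 18939 genes) and the lowest for 5. It was at least 2 times the mean of the others for 69 members (4.98% of all genes of that floor). The median member kept 12.5% of its control level in drought library 2 and 4.99% in libraries 1 and 3. The ratio of library 2 to the mean of libraries 1 and 3 had a median of 2.78 over the 97 members with a value, and it ran from 0.436 to 10.2. The median of that ratio over all genes was 1.06.

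**Figure D2:**
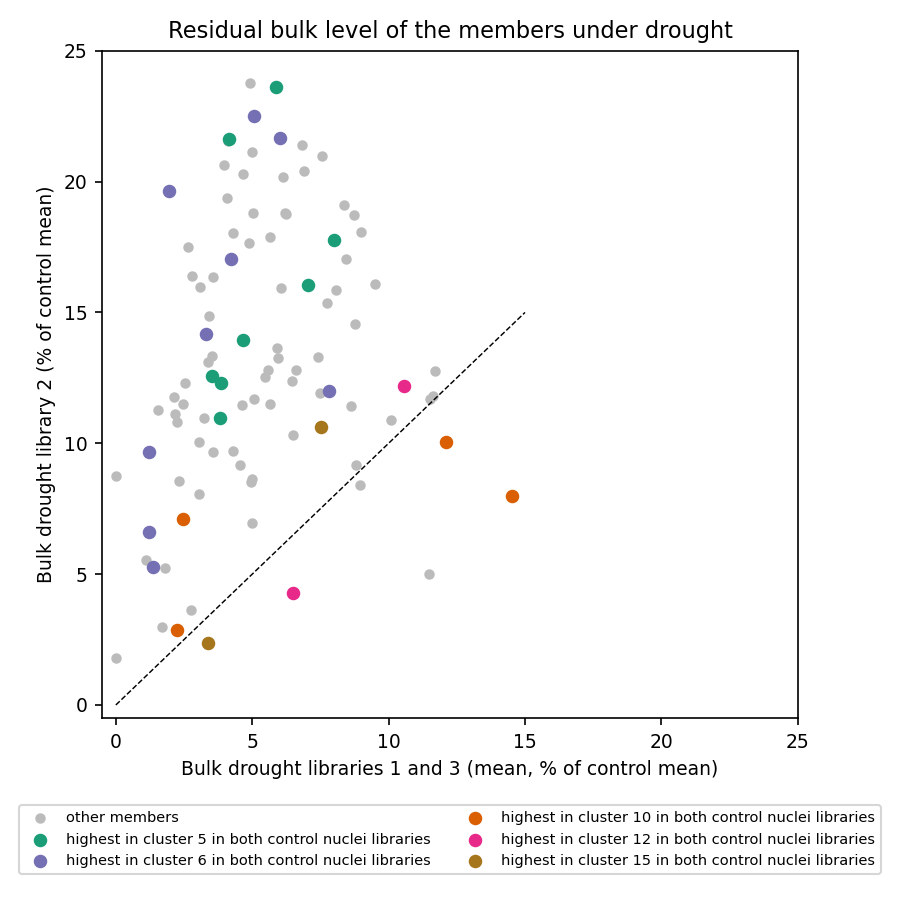
Remaining bulk level of each member, as a percent of its control mean, in drought library 2 (vertical axis) against the mean of drought libraries 1 and 3 (horizontal axis); the dashed line marks equal levels. Most of the points lie above the line, and the coloured points show members whose level in control nuclei was highest in the same cluster in both control libraries, with those of clusters 5 and 6 all above the line.

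In watered stems, the median member had a lower level in nuclei than in bulk. The ratio of nuclei to bulk control CPM had a median of 0.546 for members and of 1.04 over all genes of that floor, and for members it ran from 0.0104 to 4.77. Reads and UMIs come from different library kits, and neither CPM scale is divided by gene length, so each ratio is a description of 1 gene. Among the most abundant members, PtXaAlbH.01G104300 had 208.9 CPM in bulk controls and 16.4 CPM in control nuclei, a ratio of 0.0785. At the upper end, PtXaAlbH.18G059600 had 24.8 CPM in bulk and 118.2 CPM in nuclei. Members had a median of 150 UMIs over both control nuclei libraries, and 5 of them had fewer than 10 UMIs over all 4 libraries. One further feature bears on counting: PtXaAlbH.07G062500 and PtXaAlbH.07G062600 are neighbours in the order of the IDs, had nearly equal bulk reads (433 and 419 in control library 1), and may share reads if they are copies, which could not be checked. Members were spread over the 19 numbered groups of IDs, with at most 10 in one.

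In nuclei the members were also lower under drought as a sum, with a larger share left. Summed over the members, control nuclei had 2788 and 3762 CPM and drought nuclei 1942 and 1483 CPM. Both drought libraries were below both controls, and on average 52.3% of the control level was left, against 8.49% in bulk. Without the most abundant member the nuclei value was 53.3% and the bulk value 8.28%. The share left was larger in nuclei than in bulk for 92 members, but they were chosen for low bulk levels, so this order is no test of the assays. The median member had 39.4% of its control level in drought nuclei, where the median over all genes of that floor was 101.7%.

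Of the 99 members, 66 were lower in both drought nuclei libraries than in both controls. The share of all genes of that floor with this order was 26.3%. Only 2 members were higher in both drought libraries than in both controls, where the share of all genes was 28.2%. Of these, PtXaAlbH.15G033300 had 0 and 1 UMIs in the control libraries against 1 and 1 in the drought libraries, too few to read an order from. By mean CPM, 14 members had a nuclei drought level of at most the control level divided by 8 (0.787% of all genes), the drop that defined the members in bulk. These include 5 members with 0 UMIs in both drought libraries (0.38% of all genes), whose counts were too few to show a drop of that size. Against a floor of 3 counts over the drought group, the largest bound among them was at least 6.56-fold lower, for PtXaAlbH.19G022600. At the other end, 36 members kept more than 50% of their control level in nuclei, where 92.3% of all genes of that floor did.

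**Figure D3:**
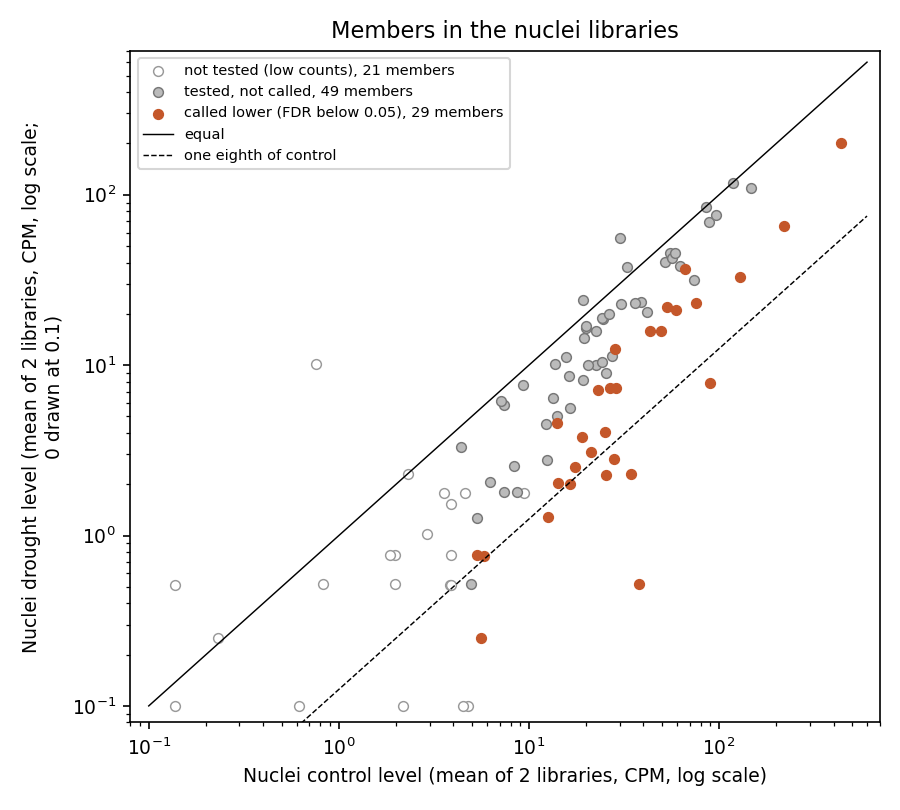
Drought level against control level of each member in nuclei, as means of the libraries of each treatment in CPM on log scales. The called members lie below the line of equal levels, while PtXaAlbH.06G117600 lies above it with 184.7% of its control level.

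Tested over all genes with edgeR, 78 members passed the filter on low counts and 29 were called lower under drought at a false discovery rate of 0.05, against 5.21% of the 20768 genes tested. With edgeR 0 members were called higher, where 3.63% of tested genes were; 1 was higher at an unadjusted p under 0.05, and DESeq2 called 0. With edgeR, 75 of the 78 had a negative log2 fold change. The filter matters for these counts. Of the tested members, 52 also passed on their drought libraries alone, 15 of them called, while 26 needed a control library to pass, 14 of them called. For these 26 the filter itself favours a lower level under drought. The share over all tested genes was not split in this way, so neither count has a like share beside it. The 21 members not tested did not reach the filter's level (3.55 CPM) in more than 1 nuclei library. Some were well above it in a single library, such as PtXaAlbH.14G014600 with 39 UMIs in drought library 1. The median log2 fold change of the tested members was -1.24 and that of all tested genes 0.01. Of the 29, 13 were called under all 12 alternative settings, and leaving out 1 library gave 20 to 41 members. The 12 settings included a pairing of libraries chosen after seeing the data. Most of them kept the same filter, so being called under all of them does not remove what the filter favours. The p-values measure the spread between 2 plants per treatment.

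The most negative nuclei change belonged to PtXaAlbH.07G082400, with 205 and 105 UMIs in the control libraries against 2 and 0 in the drought libraries. With so few drought UMIs the fitted change depends on the fit, so the ratio of pooled CPM is given instead: control was 76.2 times drought, with a 95% exact binomial interval of 20.9 to 632.4 for counting error alone. The adjusted p was 0.0017 with edgeR, but the gene needed a control library to pass the filter, which favours a lower level under drought. In bulk the same gene kept 3.04%. PtXaAlbH.18G051600 had 27 and 18 UMIs in the control libraries against 0 and 1 in the drought libraries, a pooled ratio of 22.1 (interval 3.78 to 893.5). It too needed a control library to pass the filter. Its adjusted p was 0.0226 with edgeR and ranged from 0.0054 to 0.097 over 11 alternatives, 7 of which called it.

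PtXaAlbH.10G112000 had 188 and 93 UMIs in the control libraries against 4 and 5 in the drought libraries, fitted by edgeR as a log2 change of -3.92 with SE 0.46 (adjusted p 0.00224). PtXaAlbH.06G048800 had 400 and 317 UMIs in the control libraries against 16 and 15 in the drought libraries, fitted by edgeR as a log2 change of -3.53 with SE 0.25 (adjusted p 0.000339). This was the member with the smallest adjusted p, and its libraries agreed within each treatment. PtXaAlbH.10G062800 had 128 and 78 UMIs in the control libraries against 3 and 6 in the drought libraries (edgeR adjusted p 0.00399). PtXaAlbH.12G097300 had 115 and 107 UMIs in the control libraries against 6 and 5 in the drought libraries, fitted by edgeR as a log2 change of -3.33 with SE 0.39 (adjusted p 0.00223). In bulk these 4 members kept 5.77%, 11.1%, 2.44% and 7.98% of control in the same order, and in nuclei they kept 6.65%, 8.82%, 8.96% and 10.0%. The share left was thus lower in nuclei for PtXaAlbH.06G048800 and higher for the other members of the 4. Of the 4, only PtXaAlbH.06G048800 passed the filter on its drought libraries alone, and the others needed a control library.

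Not all of the members that lost most in bulk could be tested in nuclei. PtXaAlbH.19G022600 had 32 and 8 UMIs in controls and 0 in both drought libraries, so that, against a floor of 3 counts over the drought group, it was at least 6.56-fold lower; it was too low for the filter and was not tested. PtXaAlbH.06G051600 fell from 78 and 88 UMIs to 8 and 4, fitted by edgeR as a log2 change of -2.80 with SE 0.45 (adjusted p 0.00826). At the edge of the bulk rule, PtXaAlbH.01G023800 fell from 103 and 107 UMIs to 5 and 24 (edgeR log2 change -1.87, SE 0.49, adjusted p 0.044, 0.00071 to 0.0931 over 12 alternatives). PtXaAlbH.09G092200 had 30 and 20 UMIs in the control libraries against 8 and 0 in the drought libraries, with no call (adjusted p 0.274, edgeR). PtXaAlbH.06G051600, PtXaAlbH.01G023800 and PtXaAlbH.09G092200 all needed a control library to pass the filter.

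Other abundant members kept more in nuclei than in bulk. PtXaAlbH.03G141000 had 403.6 and 475.5 CPM in control nuclei against 219.6 and 182.0 CPM in drought nuclei, fitted by edgeR as a log2 change of -1.16 with SE 0.19 (adjusted p 0.00873). It kept 45.7% in nuclei and 9.88% in bulk; the difference between the assays was not tested. PtXaAlbH.02G212700 had 182.7 and 254.6 CPM in control nuclei against 61.1 and 70.7 CPM in drought nuclei, fitted by edgeR as a log2 change of -1.76 with SE 0.22 (adjusted p 0.00312). Both genes had separate groups in nuclei. PtXaAlbH.09G141900 had 28.8 and 48.7 CPM in controls against 28.5 and 18.6 CPM under drought, and PtXaAlbH.01G104300 had 15.2 and 17.6 CPM in controls against 7.77 and 3.51 CPM under drought. Neither passed the test, with adjusted p of 0.189 and 0.0524 from edgeR, although for both genes the drought libraries lay below the controls.

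Some members had a nuclei level under drought as high as in controls. PtXaAlbH.18G059600 had 445 and 487 UMIs in the control libraries against 283 and 177 in the drought libraries, which is 102.4 and 134.0 CPM against 146.6 and 88.7 CPM. The groups overlapped and the log2 change in edgeR was -0.04 with SE 0.25 (adjusted p 0.944), while its bulk level went from 27.6, 23.8 and 22.8 CPM to 1.25, 5.57 and 1.25 CPM. PtXaAlbH.01G268800 had 14.3 and 24.2 CPM in control nuclei against 26.4 and 22.1 CPM in drought nuclei (edgeR log2 change 0.31, SE 0.32, adjusted p 0.616), with bulk levels of 32.6, 41.8 and 32.1 CPM and 2.51, 4.26 and 3.04 CPM. PtXaAlbH.06G117600 had 98 and 136 UMIs in control nuclei and 118 and 99 in the shallower drought libraries, or 22.5 and 37.4 CPM against 61.1 and 49.6 CPM. Its drought libraries were above both controls, with a log2 fold change of 0.86 (SE 0.27) that was not called (adjusted p 0.0828 with edgeR, 0.0125 to 0.38 over 12 alternatives, 3 of which called it), while its bulk level went from 107.5, 92.5 and 88.6 CPM to 6.24, 18.1 and 5.65 CPM.

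A further feature of the nuclei values was an order among single libraries. Of the 66 members with at least 100 UMIs, 36 were higher in control library 2 than 1 and higher in drought library 1 than 2 (28.2% of 15948 genes with at least 100 UMIs), and for 16 both differences were at least 1.5 times (1.45% of those genes). These thresholds were chosen after the values were seen. PtXaAlbH.15G055800 had 147 and 500 UMIs in the control libraries against 257 and 74 in the drought libraries, so that 1 library of each treatment was high and the other low. PtXaAlbH.06G071600 likewise had 19 and 130 UMIs in the control libraries against 62 and 2 in the drought libraries. PtXaAlbH.14G014600 had 3 and 3 UMIs in the control libraries against 39 and 0 in the drought libraries, with the 39 UMIs in 20 barcodes of drought library 1 and up to 9 in 1 barcode. For such members a mean over 2 libraries does not describe either library.

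The nuclei were grouped into 19 clusters without using the members or any gene called in nuclei, and the clusters are numbered by size and carry no cell type name. Summed member levels were highest in cluster 6, with 5087 and 6270 CPM in controls against 3829 and 3162 CPM under drought, and, among clusters with 30 or more nuclei per library, lowest in cluster 7, with 931.0 and 1333 CPM in controls against 633.3 and 491.3 CPM under drought. In 16 of the 19 clusters both drought libraries were below both controls, and they overlapped in clusters 4, 5 and 13. The clusters are parts of the same libraries, so they are not separate observations, and no like count was made for other genes. Among the 16, clusters 12, 14, 17, 18 and 19 had fewer than 30 nuclei in at least 1 library. The drought level was 81.9% of control in cluster 5 and 79.5% in cluster 4, and 20.8% in cluster 12 and 19.9% in cluster 15. Cluster 12 held 3.94% and 2.62% of the nuclei in controls and 0.757% and 0.535% under drought (24 and 20 nuclei), while cluster 15 had 1.43% and 1.05% in controls and 1.39% and 1.93% under drought. The part of nuclei numbers in the whole-library values was not tested.

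**Figure D4:**
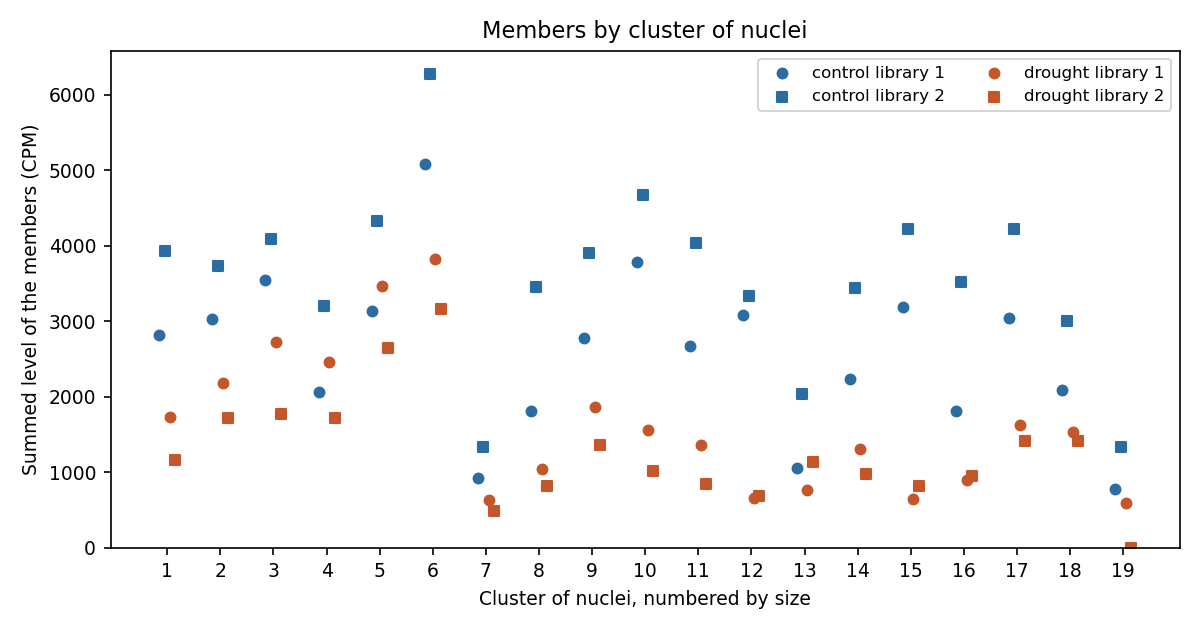
Summed level of the members in CPM in each cluster of nuclei, with each point a library. The drought points lie below the control points in 16 of 19 clusters, which are parts of the same libraries and not separate observations.

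Within the 14 clusters that had 30 or more nuclei per library, members gave 172 tests of 60 genes. Most of them depended on the filter: in 106 the member needed a control library to pass it, and these tests, where the filter itself favours a lower level under drought, gave 18 of the 20 calls made with edgeR, all of them lower. In the other 66 tests the member passed on its drought libraries alone, and 2 were called lower, PtXaAlbH.17G042000 in cluster 1 and PtXaAlbH.02G212700 in cluster 2. PtXaAlbH.17G042000 had 28 and 52 UMIs in cluster 1 of the controls and 14 in each drought library (edgeR log2 change -1.62, SE 0.37, adjusted p 0.0455). Over all genes and clusters, 0.923% of 67950 tests called a gene lower. The share was 0.577% of the 48153 that passed on the drought libraries alone and 1.76% of the 19797 that needed a control library. With edgeR 0 tests called a member higher (4 at an unadjusted p under 0.05, no other tool run per cluster). Leaving out 1 library gave 10 to 26 calls, with 10 without control library 2 and 12 without drought library 1. The calls were of 14 members, 13 of them also called in the whole libraries. Cluster 1, the cluster with most nuclei, gave 8 of the calls. In it, PtXaAlbH.06G048800 had 84 and 86 UMIs in the control libraries against 2 and 4 in the drought libraries (edgeR log2 change -4.92, SE 0.44, adjusted p 0.000132). PtXaAlbH.02G212700 was called in clusters 1, 2, 5 and 7. Its log2 fold changes were -3.20 (SE 0.44), -1.12 (SE 0.29), -1.91 (SE 0.43) and -4.07 (SE 0.90) in that order, and its level in control nuclei was spread widely, at 1.57 times the level of the other nuclei in its highest cluster. PtXaAlbH.03G141000 was called in cluster 7 alone, with 85 and 88 UMIs in the control libraries against 5 and 1 in the drought libraries (edgeR log2 change -2.75, SE 0.55, adjusted p 0.0278). Whether the fold changes differ between clusters was not tested.

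Some members had a much higher level in 1 cluster of control nuclei than in the others. Among the 73 members with at least 50 control UMIs, 35 had their highest level in the same cluster in both control libraries. For 14 of these the level there was at least 10 times that in the other nuclei. The same counts were not made over all genes, so they are not read as a trait of the members. Some of the 35 rest on few UMIs, such as PtXaAlbH.09G095300, with 1 UMI in cluster 17 of control library 1. The cluster was 6 for 9 members, 5 for 8 and 10 for 4, with 1 or 2 members each in clusters 2, 3, 12, 13, 14, 15, 16 and 17. The grouping was made after the values were seen and carries no test. Each member's cluster was picked for its high control level there, which by itself favours a lower drought share within that cluster.

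The 4 members of cluster 10 had levels there from 21.3 to 52.9 times those in the other nuclei. PtXaAlbH.10G062800 had 94 and 36 UMIs in cluster 10 of the controls, 63.1% of its control UMIs, and a level there 52.9 times that in the other nuclei. Under drought it had 0 UMIs in cluster 10 in both libraries. Set against 3 counts over the drought group, or 28.8 CPM, it was at least 19.2-fold lower there (adjusted p 0.023 with edgeR). It needed its control libraries to pass the filter there. Cluster 10 held 148 and 157 nuclei in controls (3.41% and 2.76%), against 87 and 98 under drought (2.74% and 2.62%). The cut at 200 genes had left out 2.19% and 0.0176% of control barcodes and 24.5% and 38.4% of drought barcodes, and the part of this in the values within clusters was not tested. PtXaAlbH.01G023800 was likewise highest in cluster 10, with 64 and 54 UMIs in the control libraries against 0 and 9 in the drought libraries. PtXaAlbH.04G013900, highest in cluster 10 in the mean of the controls but not in control library 1, had 224 and 347 UMIs over whole control libraries and 24 and 102 under drought, with no call (adjusted p 0.156, edgeR).

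Cluster 12 and cluster 15 members were also low under drought. PtXaAlbH.06G048800 had 220 and 114 UMIs in cluster 12 of the controls and 0 in that cluster under drought. Given a floor of 3 counts, or 117.4 CPM in this small cluster, it was at least 10.9-fold lower; the cluster had too few drought nuclei for a test. Outside cluster 12 its drought level was 16.8% of control. PtXaAlbH.07G082400 had 40 and 32 UMIs in cluster 15 of the controls and 1 and 0 under drought (edgeR adjusted p 0.00138), and 23.5% of its control UMIs were there. It needed its control libraries to pass the filter there.

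The 8 members of cluster 5 had a median of 69.3% of control in whole nuclei libraries, and the 9 of cluster 6 a median of 75.3%, and the 4 of cluster 10 a median of 29.1%. The value of cluster 5 was 34.3% without drought library 1, near that of cluster 10 in the same libraries (31.6%), while cluster 6 stayed between 59.1% and 83.3% with any 1 nuclei library left out. Cluster 10 was at 11.2% without drought library 2. The ratio of bulk drought library 2 to the other drought libraries had medians of 3.10 for cluster 5, 4.28 for cluster 6 and 1.05 for cluster 10. Within their own cluster the drought level was 134.9% of control for the median member of cluster 5, 64.3% for cluster 6 and 16.4% for cluster 10. The control levels that these percents are taken from are also those that picked the cluster. The cluster 5 value rested on drought library 1: without it the median was 71.2%, with 1 of the 8 members above its control level, and without drought library 2 it was 141.5%, with 7 above. Cluster 10 was at 26.1% without drought library 1 and 0% without drought library 2, from few UMIs. Cluster 6 lay between 55.8% and 69.0% with any 1 library left out. As an example, PtXaAlbH.18G059600 had 660.4 and 664.8 CPM in cluster 6 of the controls and 646.8 and 344.1 CPM there under drought, where both drought libraries were below the controls. The member with most control UMIs among those highest in cluster 5, PtXaAlbH.02G005900, had its highest level there in control library 1 but in cluster 4 in control library 2. It had 46.7 and 64.1 CPM in whole control libraries against 45.1 and 46.1 CPM under drought (edgeR log2 change -0.31, SE 0.23, adjusted p 0.447), whereas its bulk level went from 155.5, 167.9 and 156.4 CPM to 7.81, 28.2 and 7.77 CPM.

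**Figure D5:**
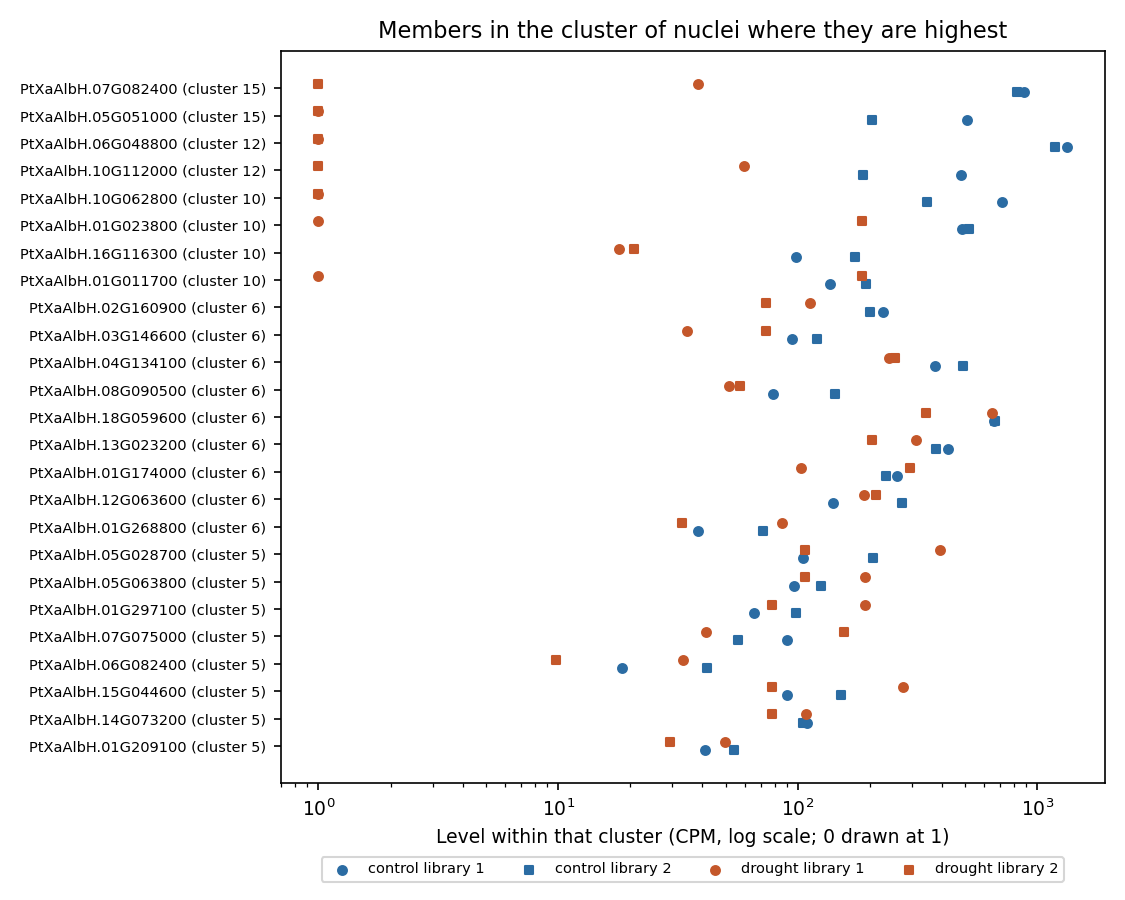
Level in CPM, on a log scale, of members within the cluster of nuclei where both control libraries had them highest, with each point a library. Drought points for clusters 10, 12 and 15 fall to the left of the controls or sit at the mark for 0 UMIs, except drought library 2 of PtXaAlbH.01G011700, which lies among its controls; those of clusters 5 and 6 lie closer to or among the controls.

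For cluster 17 the libraries differed too much for such a reading. It held 0.230% and 1.47% of the nuclei in controls, against 1.39% and 0.241% under drought, or 10, 84, 44 and 9 nuclei. Its median of 1719 UMIs per nucleus was the highest of the clusters. PtXaAlbH.13G126400, highest there in control library 1 but in cluster 3 in control library 2, had 242 and 175 UMIs in the control libraries against 52 and 108 in the drought libraries, with overlapping CPM and no call (edgeR log2 change -0.39, SE 0.30, adjusted p 0.478). Its bulk level went from 153.9, 146.7 and 142.8 CPM to 12.7, 28.2 and 12.1 CPM.

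Over the 73 members with at least 50 UMIs in the nuclei libraries, control levels in nuclei and bulk had a Spearman rho of 0.489. It is a description across genes of the same libraries, over bulk levels limited from below by the choice of members, and carries no test.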

How the data were processed

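The authors deposited raw read counts per gene for the bulk libraries and raw UMI counts per feature and barcode for the nuclei libraries. HISAT2 is named in the submitters' processing notes with no role; the sources used here do not name the counting tool, strand setting or genome build. How reads of near-identical genes or of both parental alleles were assigned is therefore unknown. The 25 ribosomal and transfer RNA features (0.0574% to 0.478% of UMIs) stayed out of totals and tests. CPM was computed from column totals. Members and gene choices were made with earlier results of these data known. No replicate pair agreed within sampling noise.

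UMIs were summed over all barcodes of a library and tested with edgeR 4.0.16 (R 4.3.3; quasi-likelihood F test, TMM, filterByExpr, Benjamini-Hochberg over all tested genes); SE was taken as the absolute log2 change over the root of the F statistic. The test was run on simulated data with 1 fixed spread between libraries and changes placed only in genes with many UMIs. It called 18% of the genes set at a log2 change of -1, 92% at -2 and 100% at -3. A member that was not called may therefore still differ. For clusters, 16950 of 20406 barcodes with at least 200 genes were scaled to 10000 counts, log-transformed and grouped from 2000 variable genes, 30 components, 15 neighbours and Leiden resolution 0.5, without 1905 genes (members and called genes). Scrublet called 2 doublets, too few to have worked, so doublets remain. Intervals and floors cover counting error only. Genes were named by a rule: the 6 most abundant members, the 4 with the lowest ratio, those next to the threshold, the 6 most negative and 2 highest in nuclei, and 1 member for each of 5 clusters; others named are said to be chosen after their values were seen, or belong to the library order and counting remarks.

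Alternatives were DESeq2 1.42.0, other scalings, filters, thresholds and each library left out.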

Additional observations from a re-analysis of the deposited data

Results flagged for a closer look

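PtXaAlbH.06G117600 stood out because its direction differed between the assays. It was lower in each bulk drought library than in any bulk control, which the choice of members fixed in advance. In nuclei it was higher in both drought libraries than in both controls, and its drought mean was 184.7% of the control CPM. That nuclei order held for 28.2% of all genes with a control mean of at least 5 CPM, and the gene was not called (adjusted p 0.0828 with edgeR). The difference between the assays was not tested.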

How the results depend on the processing

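The number of members depended on the thresholds and on 1 library: 170 genes met the rule with a drought mean of at most 25% of control, 30 with at most 6.25%, and 84 to 316 with 1 bulk library left out. The highest, 316, was without bulk drought library 2 and held 98 of the members. TMM scaling gave 82. In nuclei, genes called (1835) were 2816 without a filter on low counts, 2792 with libraries of different number paired (control 1 with drought 2, chosen after seeing the data), and 853 to 2241 with 1 library left out; 853 was without drought library 2. Members called lower (29) were 46 without the filter, 22 with DESeq2, and 20 to 41 with 1 library left out, 41 of them without control library 1. The median log2 fold change of tested members, with single libraries left out, was lowest at -1.61 (control library 1 out) and highest at -0.83 (control library 2 out). Calls within clusters (20) ran from 10 without control library 2, and 12 without drought library 1, to 26. With replicate number as a block, 1672 genes and 26 members were called, with 21 calls in clusters. The correlation of deviations of same-numbered libraries was -0.10. With 2 libraries per treatment, it cannot show whether same-numbered libraries share anything beyond the label. Of 10 named members called, 8 were called under every alternative that tested them; PtXaAlbH.18G051600 and PtXaAlbH.01G023800 were not. The sign of the log2 fold change turned for 3 named members that were not called: with 1 library left out, PtXaAlbH.01G268800 ran from -0.031 (without control library 1) to 0.71, PtXaAlbH.18G059600 from -0.44 to 0.27 (without drought library 2; 0.15 without control library 2), and PtXaAlbH.13G126400 from -0.99 to 0.0286 (without drought library 1). The cluster of highest mean level over both control libraries was also the highest in control library 1 alone for 50 of 73 members. In control library 2 alone it was the highest for 52. Each library is part of that mean, and the 2 libraries had the same highest cluster for 35 of the 73. The causes of these shifts were not tested. Nuclei depth limits the members with few UMIs, and 21 members could not be tested.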
